A study of Homo sapiens with 48 samples.

Results

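The 36 nuclear genes for aminoacyl-tRNA synthetases in the deposited table were taken by gene symbol from 58870 genes, 20 for the cytosolic enzymes and 16 for the mitochondrial enzymes, whose symbols end in 2. All 36 were found and all 36 passed the filter on low counts, along with 16697 genes in total. The rule that picks the members uses gene names and no measured value, but the members were chosen with earlier results of these data known. RNA was sequenced after ribosomal RNA depletion from Flp-In 293 T-REx cells. This established line derives from human embryonic kidney and takes up a transgene at a single recombination site. Of the 8 stable lines, CLIP carries the CLIP tag (a self-labelling protein tag) without UPF1, WT expresses wild-type UPF1 fused to that tag, and the other 6 express a tagged UPF1 mutant, called LECY, E797R, I757R, F192E, IR-ER or FE-ER in the labels, which do not spell out LECY, IR-ER or FE-ER. Cells of every line received 40 nM of siRNA by reverse transfection, either a non-targeting one (siNT) or one against endogenous UPF1 (siUPF1), and were harvested after 72 h, in 3 biological replicates, giving 16 groups and 48 libraries. All lines were kept under hygromycin until they were seeded for transfection, each line is a single stable line, and the sources used here give no siRNA sequence and do not say whether doxycycline was added.

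An aminoacyl-tRNA synthetase joins an amino acid to its matching tRNA, so that the ribosome can use it. Human cells hold one set of enzymes in the cytosol and another, encoded by separate nuclear genes and imported after translation, in the mitochondrion. For glycine and lysine a single gene, GARS or KARS, gives both forms. Several cytosolic enzymes sit together in the multi-synthetase complex, in which EPRS carries the activities for both glutamate and proline. The helicase UPF1 is a core factor of nonsense-mediated mRNA decay (NMD), the pathway that degrades mRNAs with premature stop codons and some normal mRNAs. The transcription factor ATF4, whose mRNA is a known NMD target, raises amino acid transport and synthesis genes and many of the cytosolic synthetase genes when amino acids are short.

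Promoters are shown here because several cytosolic synthetase genes are textbook ATF4 targets and ATF4 mRNA itself differed between the groups. The composite element bound by ATF4 with C/EBP proteins was searched as TGATGNAA on both strands (reverse complement TTNCATCA) in RefSeq promoter windows of GRCh38.p14, from 250 bases before to 50 bases after the annotated start of a gene. A window was found for 16 cytosolic and 14 mitochondrial genes, and none for DARS, LARS, VARS, YARS, AARS2 and VARS2. Some genes have more than 1 window. A match lay in a window of 7 of these 16 cytosolic genes (43.8%), 1 of 14 mitochondrial genes (7.14%) and 4.46% of all 27305 genes with a window, and in 3.62% of all 35116 windows of this length. The matches follow, 5′ to 3′ on the strand of the gene, with the match in capitals and 11 bases on each side.
AARS: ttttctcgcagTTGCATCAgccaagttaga
CARS: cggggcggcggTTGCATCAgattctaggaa
GARS: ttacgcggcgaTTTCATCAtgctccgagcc
IARS: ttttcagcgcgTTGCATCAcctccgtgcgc
MARS: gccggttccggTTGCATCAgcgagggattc
NARS: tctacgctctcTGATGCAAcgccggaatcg
TARS: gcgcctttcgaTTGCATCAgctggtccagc
YARS2: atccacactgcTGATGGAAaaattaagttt

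These windows lie at chr16:70289675-70289704 (AARS), chr11:3057407-3057436 (CARS), chr7:30594834-30594863 (GARS), chr9:92293692-92293721 (IARS), chr12:57488053-57488082 (MARS), chr18:57621804-57621833 (NARS), chr5:33440956-33440985 (TARS) and chr12:32756076-32756105 (YARS2), with GARS, MARS and TARS on the plus strand and the others on the minus strand. Because the search fixed the other letters, the capitals can differ among these genes only in their strand and in the letter left free. A match is a description of the letters and not a bound site, and no match says only that these letters are not in the window.

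UPF1 served as the check of the labels. In CLIP cells it had 106 ± 7.45 CPM (counts scaled to library size) with siNT and 20.4 ± 0.916 CPM after knockdown (SD, n = 3 each). It fell by 2.37 on the log2 scale (SE 0.13, adjusted p = 2.1e-17). The other lines held 3259.5 to 4819 CPM as group means, with log2 changes of −0.15 (LECY) to 0.15 (WT). Transgene and endogenous reads are summed at this gene, so the loss of endogenous UPF1 could not be read in these lines. Library totals ran from 6016962 to 14551811 rounded expected counts. Of the listed 293-cell genes, NEFL (143 to 457 CPM), CDH2 (117 to 200.1 CPM) and INA (28.8 to 71.8 CPM) were clearly present in every library. PAX2 (2.3 to 10.7 CPM), LHX1 (0.72 to 4.7 CPM) and NEFM (0.34 to 2.95 CPM) were low. Their levels were near those of single fibroblast genes such as PDGFRA (1.49 to 5.03 CPM). The 293-cell genes together had 378 to 647 CPM, and fibroblast genes together had 4.04 to 13.1 CPM.

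Synthetase mRNAs were well expressed, and the cytosolic ones were the more abundant. Over all 48 libraries the median cytosolic gene had 163 CPM (range 42.0 to 429), the median mitochondrial gene 47.3 CPM (8.06 to 218) and the median of all genes tested 19.9 CPM. Per kilobase of annotated exon, in CLIP cells with siNT, the median was 58.8 CPM per kb for cytosolic and 14.3 CPM per kb for mitochondrial genes. TARS, the threonine enzyme, stood highest at 104 ± 5.78 CPM per kb (SD, n = 3), followed by NARS (asparagine, 90.1 ± 5.75) and SARS (serine, 88.9 ± 10.9), whose spread reached that of TARS. NARS, SARS, FARSA (87.4 ± 4.89), LARS (84.2 ± 2.91) and AARS (84.1 ± 8.55) lay within each other's spread. IARS2, the mitochondrial isoleucine enzyme, was the exception among mitochondrial genes at 73.9 ± 3.45 CPM per kb, far above the next, TARS2 (26.3 ± 1.16). The lowest were PARS2 for proline (4.02 ± 0.777) and MARS2 for methionine (3.34 ± 0.153), which did not differ beyond their spread. Cytosolic QARS (glutamine, 25.3 ± 5.04), VARS (valine, 20.04 ± 2.10), CARS (cysteine, 16.7 ± 1.31) and FARSB (14.0 ± 1.43), which forms one enzyme with FARSA, lay among the mitochondrial genes.

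**Figure D1:**
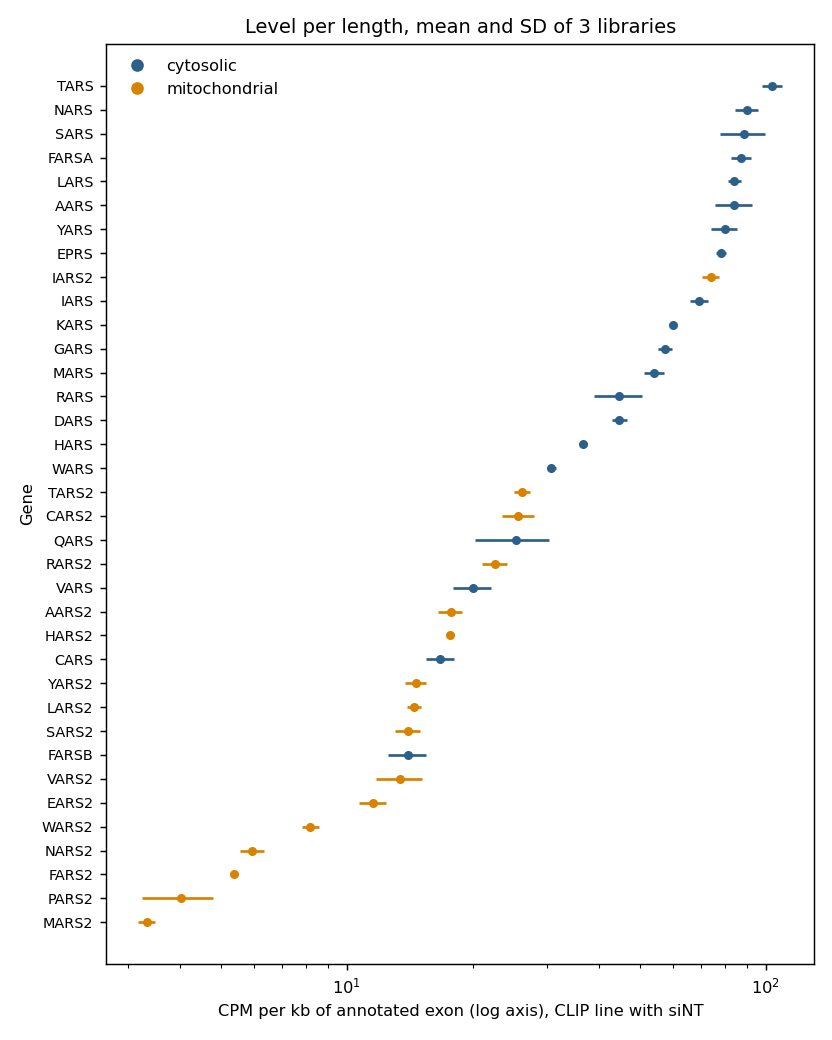
Level of each of the 36 synthetase genes in CPM per kilobase of annotated exon (log axis) in CLIP cells with siNT; points are means and bars SDs of 3 libraries. Most cytosolic genes (median 58.8) lie at the upper end and most mitochondrial genes (median 14.3) at the lower end. IARS2 at 73.9 ± 3.45 is the mitochondrial gene among the upper ones. Cytosolic QARS, VARS, CARS and FARSB lie among the mitochondrial genes.

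Without the knockdown no member was called between lines. In edgeR's quasi-likelihood test, 0 of 36 members passed with siNT when WT was compared with CLIP (0.012% of all genes passed) and when each of the 6 mutants was compared with WT (0% of all genes in F192E, 0.018% in E797R and 0.00599% in each other mutant). At an unadjusted p under 0.05, the count was 1 in I757R and 0 in the other contrasts, and DESeq2 called 0 in all 7. The 7 contrasts share libraries, since WT enters each of them.

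Knockdown in CLIP cells, where no transgene replaces UPF1, moved synthetase genes in both directions. Of the 36 members 20 (55.6%) were called at an adjusted p under 0.05, 11 higher and 9 lower, where 33.7% of all genes tested were called, 18.1% higher and 15.6% lower. The members are more abundant than most genes (median 94.2 against 19.9 CPM), and the part of abundance in the higher share called was not tested. Among cytosolic and mitochondrial enzymes the split was as follows: 5 cytosolic genes rose, 7 fell and 8 were not called (median log2 change −0.10), while 6 mitochondrial genes rose, 2 fell and 8 were not called (median 0.24), beside a median of −0.03 over all genes. In bulk samples fewer cells of a type and less RNA per cell cannot be told apart. The shares of all genes above are from the main model, and none was computed with the replicate block. With the replicate number as a block, 26 members were called: FARSA (0.23 in the main model, blocked adjusted p = 0.0277), QARS (0.45, 0.00444), MARS2 (0.39, 0.0392) and VARS2 (0.27, 0.0345) were added as higher, and RARS (−0.45, 0.000214) and LARS (−0.19, 0.0336) as lower.

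**Figure D2:**
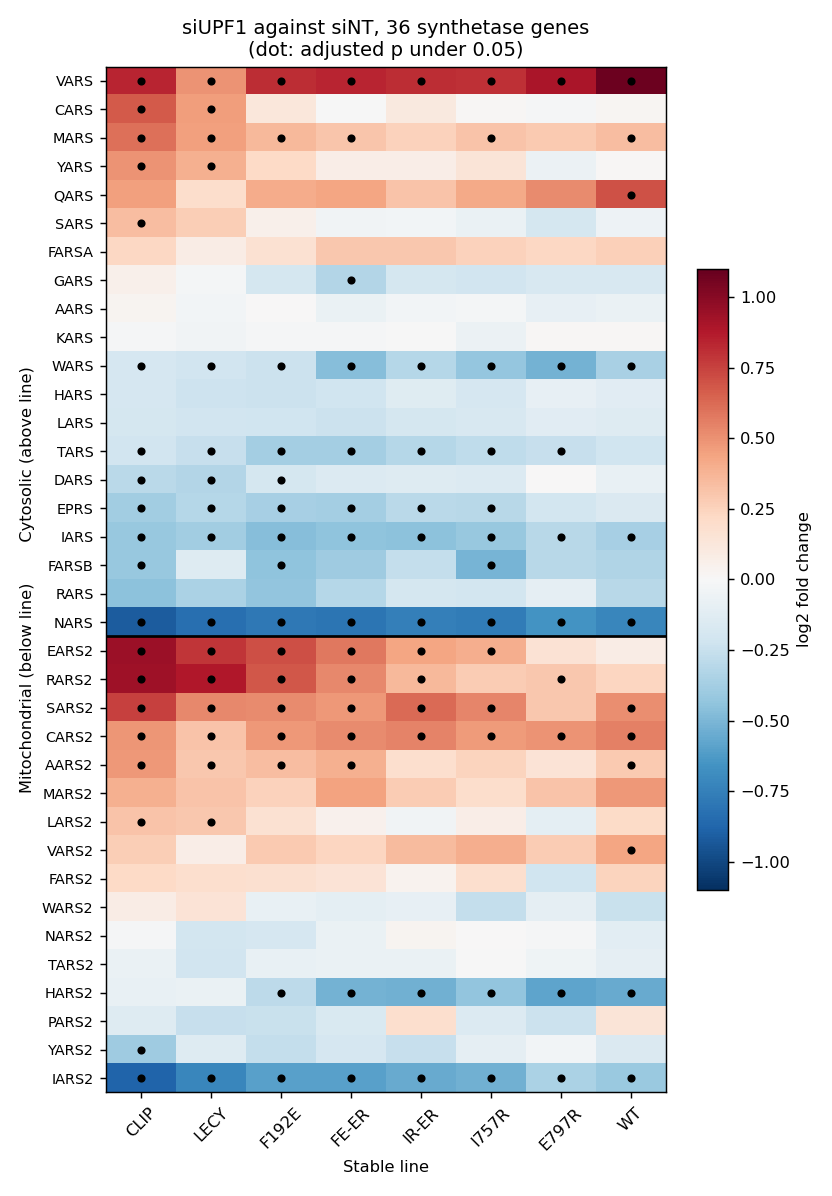
Log2 fold change of siUPF1 against siNT for the 36 synthetase genes (rows, cytosolic above the line and mitochondrial below) in the 8 stable lines (columns); a dot marks an adjusted p under 0.05. NARS, IARS, WARS and IARS2 are lower and VARS and CARS2 higher in all 8 lines, while EARS2 goes from 0.94 in CLIP to 0.09 in WT.

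The 5 cytosolic genes that rose in CLIP were VARS, CARS, MARS, YARS and SARS, the enzymes for valine, cysteine, methionine, tyrosine and serine. VARS (chromosome 6, 31777518 to 31795953, hg38) had 88.9, 76.3 and 93.9 CPM with siNT and 186, 141 and 137 CPM with siUPF1. The groups did not overlap, and siUPF1 replicate 1 was the highest of the 6 (log2 0.84, SE 0.16, adjusted p = 0.000107). CARS (chromosome 11, 3000922 to 3057613) had 55.7, 53.3 and 47.7 CPM with siNT and 87.6, 84.6 and 77.9 CPM with siUPF1, again with every siUPF1 library above every siNT library (log2 0.68, SE 0.11, adjusted p = 2.79e-06). MARS, part of the multi-synthetase complex (chromosome 12, 57475445 to 57517569), went from 154, 151 and 167 to 249.8, 224 and 247 CPM (log2 0.61, SE 0.10, adjusted p = 9.91e-06). Its exons overlap those of DDIT3, a stress response transcription factor on the opposite strand, over 5.1% of their bases, and DDIT3 was at 13.6 ± 2.73 CPM with siNT and 27.5 ± 0.862 CPM with siUPF1 (log2 1.03, SE 0.28, adjusted p = 0.00467). MARS exons also overlap those of the coding gene ARHGAP9 on the opposite strand, over 7.4% of their bases. The strand setting of the counting is not given in the sources used here. The part of these overlaps in the MARS value was not tested. YARS (chromosome 1, 32775237 to 32818153) went from 245, 249 and 280.0 to 365, 343 and 386 CPM, with no overlap between the groups (log2 0.50, SE 0.10, adjusted p = 0.000126). SARS was the weakest of the 5, with 162, 159 and 197 CPM against 202, 209 and 244 CPM. Its groups were separate by a narrow margin, the siNT library of replicate 3 being close to the lowest siUPF1 library (log2 0.34, SE 0.13, adjusted p = 0.05, just under the threshold). The SARS call was lost without siNT replicate 1 (adjusted p = 0.125) or 2 (0.163), or siUPF1 replicate 2 (0.0512) or 3 (0.207). CARS and MARS carry the promoter match printed above, and SARS has a window without one.

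The 7 cytosolic genes that fell in CLIP were NARS, FARSB, IARS, EPRS, DARS, TARS and WARS. NARS (chromosome 18, 57600656 to 57622213) had 259, 289 and 290.3 CPM with siNT and 136, 160.0 and 148 CPM with siUPF1, 1.88-fold lower with siUPF1 (log2 −0.91, SE 0.07, adjusted p = 1.59e-12). The 3 siUPF1 libraries lay close together, far below the siNT libraries. IARS, a subunit of the multi-synthetase complex (chromosome 9, 92210207 to 92293756), went from 326, 319 and 351 to 238, 240.3 and 269 CPM, without overlap (log2 −0.42, SE 0.11, adjusted p = 0.00292). EPRS (chromosome 1, 219968601 to 220046658) went from 379.9, 401 and 397 to 261, 341 and 299.9 CPM (log2 −0.38, SE 0.08, adjusted p = 0.000138). The highest siUPF1 library of EPRS stayed below the lowest siNT library. DARS, the aspartate enzyme of the same complex (chromosome 2, 135906677 to 135986100), went from 100.5, 108 and 108 to 84.0, 90.9 and 83.8 CPM (log2 −0.29, SE 0.06, adjusted p = 0.00044), a call that was not made without the filter on low counts (adjusted p = 0.0972). FARSB, the beta subunit of the phenylalanine enzyme (chromosome 2, 222570536 to 222656337), went from 42.8, 52.3 and 46.3 to 34.1, 39.9 and 31.7 CPM (log2 −0.42, SE 0.15, adjusted p = 0.0239), while FARSA, its alpha subunit, did not pass (log2 0.23, SE 0.11, adjusted p = 0.113). The FARSB call was lost without siUPF1 replicate 1 (adjusted p = 0.0909) or 3 (0.123), or siNT replicate 2 (0.138) or 3 (0.0526). TARS and WARS were the smallest falls (−0.21 and −0.18, adjusted p = 0.039 and 0.0378). The WARS call was lost without any 1 of the 6 libraries (adjusted p from 0.0573 without siUPF1 replicate 2 to 0.134 without siUPF1 replicate 1). The TARS call was lost without siUPF1 replicate 1 (0.178) or 3 (0.143), or siNT replicate 2 (0.197) or 3 (0.105), with RLE factors (0.0515), without the filter on low counts (0.268) and with only the groups compared (0.0674). Without the filter, or with only the groups compared, WARS was lost too (0.482 and 0.117). NARS, IARS and TARS carry the promoter match, so of the 7 cytosolic genes with a match 2 rose, 3 fell and 2, AARS and GARS, were not called (0.03 and 0.05).

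Mitochondrial EARS2 and RARS2 showed the largest rises of all members in CLIP. EARS2, which charges mitochondrial tRNAs with glutamate (chromosome 16, 23522014 to 23557731), had 47.9, 54.2 and 55.0 CPM with siNT and 90.4, 104 and 107 CPM with siUPF1 (log2 0.94, SE 0.09, adjusted p = 4.35e-11). The lowest siUPF1 library lay far above the highest siNT library. EARS2 shares 6.5% of its exon bases with the coding gene UBFD1 on the opposite strand. The part of this overlap in the EARS2 value was not tested. RARS2, the mitochondrial arginine enzyme (chromosome 6, 87514378 to 87590003), went from 38.0, 41.4 and 43.5 to 66.2, 86.3 and 81.9 CPM (log2 0.93, SE 0.10, adjusted p = 9.65e-10), with siUPF1 replicate 1 below the other two but above all siNT libraries. SARS2 for serine (chromosome 19, 38915266 to 38930896) went from 32.6, 28.6 and 31.9 to 50.9, 53.1 and 52.8 CPM (log2 0.75, SE 0.12, adjusted p = 3.2e-06). SARS2 is uncertain, because 46.2% of its exon bases are shared on the same strand with the annotated coding gene AC011455.2, between which RSEM divides reads by estimation. CARS2, AARS2 and LARS2 rose by 0.49, 0.48 and 0.32 (adjusted p = 0.000852, 7.88e-05 and 0.00266), the mitochondrial enzymes for cysteine, alanine and leucine. All 6 rises were called under each of the 11 alternatives tried for CLIP (another test, scaling, filter, set of samples, a block, and leaving out each of 6 libraries).

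IARS2 was the large mitochondrial fall in CLIP. It is the most abundant mitochondrial member (chromosome 1, 220094102 to 220148041) and went from 273, 249 and 266 CPM with siNT to 129, 155 and 144 CPM with siUPF1, 1.84-fold lower (log2 −0.88, SE 0.09, adjusted p = 1.49e-09). No siUPF1 library came near the siNT libraries. YARS2 for tyrosine (chromosome 12, 32727490 to 32755902) went from 30.1, 29.9 and 33.1 to 21.7, 26.9 and 22.3 CPM (log2 −0.39, SE 0.13, adjusted p = 0.0211), and it is the mitochondrial gene with a promoter match. The YARS2 call was lost without siUPF1 replicate 1 (adjusted p = 0.124) or 3 (0.0924), without siNT replicate 3 (0.101), and without the filter on low counts (0.0614).

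How often enzymes for the same amino acid in the 2 compartments were called together depended on the replicate block. Of 13 amino acids with 1 cytosolic and 1 mitochondrial gene among the members, both genes were called in the same direction in CLIP for 3: CARS and CARS2 rose, SARS and SARS2 rose, and IARS and IARS2 fell. For tyrosine the genes were called in opposite directions, YARS at 0.50 and YARS2 at −0.39. The cytosolic gene alone was called for 5 amino acids (methionine, asparagine, threonine, valine and tryptophan), the mitochondrial gene alone for 3 (alanine, leucine and arginine) and neither for histidine. Arginine gave the widest gap, RARS at −0.45 (SE 0.24, adjusted p = 0.142) against RARS2 at 0.93. For glutamate, EPRS was at −0.38 and EARS2 at 0.94. In the main model 60% of cytosolic and 50% of mitochondrial members were called in CLIP, beside 33.7% of all genes. Whether pairs were called together more often than such shares alone would give was not tested, with or without the block. In WT cells 2 pairs were called in the same direction (valine up and isoleucine down) and none in opposite directions. With the block 8 of the 13 pairs were called together in CLIP, 5 in the same direction (methionine and valine added, both up) and 3 in opposite directions (tyrosine, and RARS and LARS lower with RARS2 and LARS2 higher). In WT the block gave 3 pairs in the same direction (methionine added) and 1 in opposite directions, RARS lower (blocked adjusted p = 0.0272) and RARS2 higher (0.0442).

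In cells with the WT transgene fewer members were called than in CLIP. In WT 12 of 36 members were called (7 higher, 5 lower), where 15.4% of all genes were called (8.43% higher and 6.98% lower). The count was 19 (11 higher, 8 lower) with the replicate number as a block, 5 when only the WT libraries were fitted, and 6 without WT siUPF1 replicate 1. In LECY 17 members were called, 10 higher and 7 lower, where 29.4% of all genes were called (15.8% higher, 13.6% lower). In F192E 16 were called, 7 higher and 9 lower, beside 21.8% of all genes (11.8% higher, 10.1% lower), and in FE-ER 15, 7 higher and 8 lower, beside 18.6% (10.1% higher, 8.52% lower). I757R had 13, 5 higher and 8 lower, beside 15.9% of all genes (8.13% higher, 7.79% lower). IR-ER had 12, 5 higher and 7 lower, beside 17% (9.21% higher, 7.8% lower), and E797R had 9, 3 higher and 6 lower, beside 16.1% (8.34% higher, 7.73% lower). With the block, I757R had 21 (11 higher, 10 lower) and E797R 15 (7 higher, 8 lower), and E797R had 5 without its siNT replicate 1. In every line the share of members called in the main model was above the share of all genes. The share of all genes called with the block was not computed. No member was called in opposite directions in different lines.

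As a description, the compartments differed in the balance of rises and falls in most lines. Median log2 changes of cytosolic genes were below 0 in all 8 lines, from −0.20 in F192E to −0.09 in LECY. Those of mitochondrial genes ran from 0.13 in I757R to 0.24 in CLIP for 5 lines, were 0.10 in FE-ER and 0.11 in IR-ER, and −0.02 in E797R. Medians over all genes lay between −0.03 and 0.02 in the 8 lines. In WT 3 cytosolic genes rose and 3 fell, against 4 and 2 mitochondrial ones. In LECY 4 cytosolic genes rose and 6 fell (mitochondrial 6 and 1), in E797R 1 and 4 (2 and 2), and in I757R 2 and 6 (3 and 2). In F192E 2 cytosolic genes rose and 7 fell (mitochondrial 5 and 2), in IR-ER 1 and 5 (4 and 2), and in FE-ER 2 and 6 (5 and 2). Summed over the 20 cytosolic genes, CLIP cells had 3992 ± 105 CPM with siNT and 3881 ± 33.1 CPM after knockdown (SD, n = 3 each). Over the 16 mitochondrial genes the sums were 858 ± 31.0 and 911 ± 17.9 CPM. The largest drop of the cytosolic sum was in FE-ER, from 4069 ± 183 to 3649.7 ± 109 CPM.

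In all, 6 members were called in every line: NARS, IARS and WARS (tryptophan) fell, VARS rose, IARS2 fell and CARS2 rose. The share of all genes called in every line was not computed, so this count has no share to be set beside. For IARS, WARS and IARS2 the WT call was narrowly lost when only the WT groups were fitted (adjusted p = 0.0683, 0.0529 and 0.0518). Fitting only the groups compared also lost IARS in I757R (0.0634) and E797R (0.1), WARS in CLIP (0.117), F192E (0.0571) and LECY (0.114), and CARS2 in LECY (0.151). Without the filter on low counts, IARS in E797R (0.0662), WARS in CLIP (0.482), F192E (0.25) and LECY (0.269), and CARS2 in LECY (0.11) were lost. NARS fell by 0.91 in CLIP and by 0.66 in E797R on the log2 scale, the ends of its range. Every siUPF1 library of NARS lay below every siNT library of the same line, and the NARS call held under all 11 alternatives in each of the 8 lines. In WT cells NARS had 276, 304 and 309 CPM with siNT and 171, 192.1 and 177 CPM with siUPF1 (log2 −0.72, SE 0.07, adjusted p = 3.8e-09). VARS rose least in LECY (0.49, SE 0.17) and most in WT (1.08, SE 0.17), where it had 115, 76.8 and 108 CPM with siNT and 244, 195 and 191.8 CPM with siUPF1. The LECY call of VARS was lost without LECY siUPF1 replicate 1 (adjusted p = 0.0603) or 3 (0.0794) or siNT replicate 2 (0.163). CARS2 rose by 0.31 (LECY) to 0.56 (WT), and its LECY call was lost without siNT replicate 1 (0.245) or 2 (0.13) or siUPF1 replicate 1 (0.059) or 3 (0.109). WARS was at −0.18 in CLIP and −0.52 in E797R, the ends of its range, and besides CLIP its call was lost in LECY without siUPF1 replicate 1 (0.112) or 2 (0.053) or siNT replicate 2 (0.0504), and in F192E without siUPF1 replicate 1 (0.0658). IARS2 was at −0.35 in E797R, a call lost without E797R siNT replicate 1 (0.0529), and between −0.72 (LECY) and −0.41 (WT) in the other lines besides CLIP. IARS ran from −0.47 (F192E) to −0.31 (E797R). The IARS call was lost in E797R without siNT replicate 1 (0.102) or 3 (0.194) or siUPF1 replicate 1 (0.131) or 2 (0.182), in WT without siUPF1 replicate 1 (0.0723) or 2 (0.0882) or siNT replicate 3 (0.142), and in I757R without siUPF1 replicate 2 (0.0709).

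The effect of the knockdown differed between CLIP and WT for some members. The difference between the siUPF1 effects of WT and CLIP, tested as an interaction, was called for 6 of 36 members, where 4% of all genes were called (0.767% higher and 3.23% lower in WT). The effect was lower in WT for EARS2, RARS2, CARS, YARS and HARS2, and higher, being a smaller fall, for IARS2. EARS2 had 53.8, 51.9 and 54.9 CPM with siNT and 60.0, 55.4 and 55.0 CPM with siUPF1 in WT cells. The lowest siUPF1 library was barely above the highest siNT library, and the WT effect (0.09, SE 0.09) was below the CLIP effect (difference −0.85, SE 0.12, adjusted p = 1.11e-05). RARS2 had 47.0, 49.7 and 41.9 CPM with siNT and 48.8, 60.1 and 54.0 CPM with siUPF1 in WT, with overlapping groups (difference −0.70, SE 0.14, adjusted p = 0.00118). RARS2 was not called in WT (0.23, adjusted p = 0.118), but was with the block (0.0442). CARS had 54.3, 53.0 and 59.1 CPM with siNT and 60.0, 50.1 and 58.7 CPM with siUPF1 in WT, fully overlapping (difference −0.65, SE 0.15, adjusted p = 0.00554). These 3 differences were called under all 17 alternatives tried.

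The other 3 differences were less firm. YARS had 264, 247 and 307 CPM with siNT and 279, 248 and 301 CPM with siUPF1 in WT, fully overlapping groups (difference −0.48, SE 0.14, adjusted p = 0.0404). That call was lost without CLIP siNT replicate 1 (0.0945) or 2 (0.0833), CLIP siUPF1 replicate 3 (0.104), WT siNT replicate 3 (0.155) or WT siUPF1 replicate 2 (0.151). IARS2 fell in WT as well, from 252, 246 and 285 to 179, 191 and 220.1 CPM (log2 −0.41, SE 0.09, adjusted p = 0.00192), and by less than in CLIP (difference 0.47, SE 0.13, adjusted p = 0.031). The IARS2 difference was lost without 1 of 7 libraries: CLIP siNT replicate 1 (0.0749) or 3 (0.0694), CLIP siUPF1 replicate 1 (0.124) or 3 (0.0704), WT siNT replicate 1 (0.0919) or 2 (0.112), or WT siUPF1 replicate 3 (0.134). HARS2, the mitochondrial histidine enzyme, went the other way. In CLIP it had 50.4, 50.8 and 48.8 CPM with siNT and 48.3, 46.9 and 46.1 CPM with siUPF1 and was not called (log2 −0.09, SE 0.08, adjusted p = 0.458), while in WT it fell from 49.6, 53.7 and 47.96 to 35.6, 31.6 and 35.4 CPM (log2 −0.56, SE 0.09, adjusted p = 6.9e-06). The difference was −0.47 (SE 0.12, adjusted p = 0.0116) and was lost without WT siUPF1 replicate 2 (0.0579). HARS2 shares 11.7% of its exon bases with HARS on the opposite strand. HARS was not called in any line in the main model (−0.18 in CLIP, −0.12 in WT), and was called lower in F192E with the block. YARS, IARS2 and HARS2 were also not called without the filter on low counts (0.0607, 0.153 and 0.246) or with only the 4 groups fitted (0.117, 0.14 and 0.0854). With the block SARS was added (difference −0.39, blocked adjusted p = 0.0141).

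**Figure D3:**
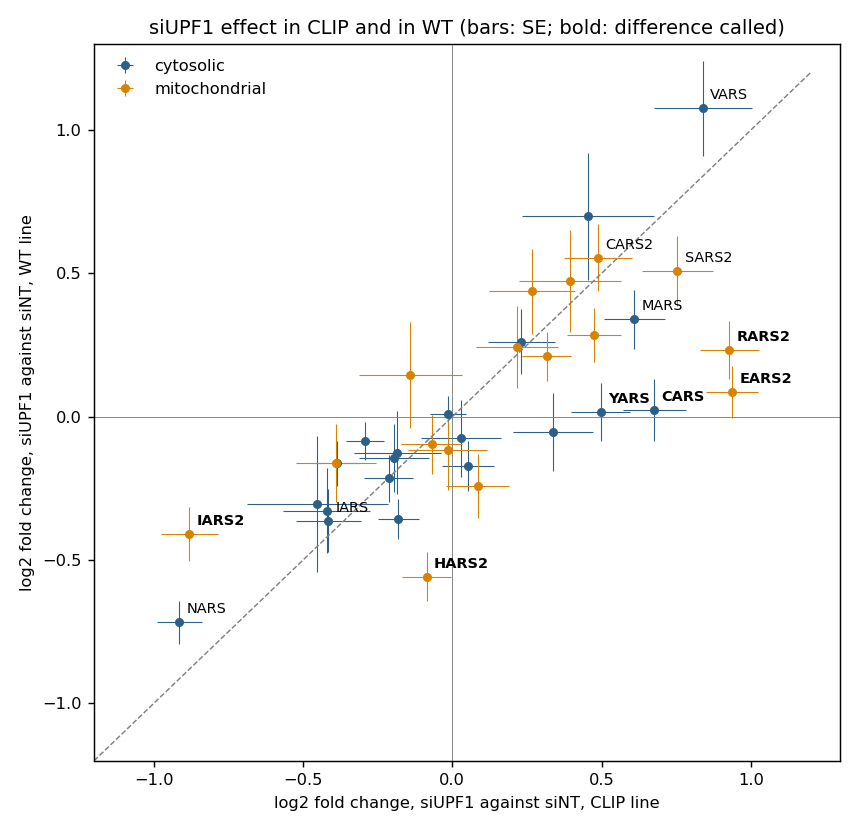
Log2 fold change of siUPF1 against siNT in the CLIP line (x axis) and the WT line (y axis) for the 36 synthetase genes, with bars for 1 SE and a dashed line where both are equal; bold names have a called difference. EARS2, RARS2, CARS and YARS lie far to the right near 0 on the y axis, and HARS2 lies below the line at −0.09 and −0.56.

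In the mutants EARS2 and RARS2 had values between those of CLIP and WT, while CARS and YARS were lowest in E797R (−0.01 and −0.06), IARS2 was highest there (−0.35), and HARS2 lay outside that range in E797R and LECY. EARS2 rose in 6 lines, by 0.40 in I757R, 0.43 in IR-ER, 0.58 in FE-ER, 0.71 in F192E, 0.78 in LECY and 0.94 in CLIP, and each of these calls held under all 11 alternatives. It was not called in E797R (0.16, adjusted p = 0.238) or WT. RARS2 rose in CLIP, LECY (0.88), F192E (0.68) and FE-ER (0.53) under all alternatives. Its calls in IR-ER (0.36) and E797R (0.29) did not hold under all: IR-ER lost it without siNT replicate 1 (adjusted p = 0.0713) or 3 (0.0542) or siUPF1 replicate 2 (0.0557) and without the filter (0.125), and E797R without the filter (0.232), with only the groups compared (0.117) and without any 1 of 5 libraries (0.0563 without siNT replicate 2 to 0.193 without siUPF1 replicate 2), the exception being siUPF1 replicate 3. RARS2 was not called in I757R (0.28), but was with the block (0.012) and without siUPF1 replicate 2 (0.0461). CARS and YARS rose in LECY besides CLIP (0.46 and 0.39), and CARS lay between −0.01 and 0.12 in the other lines. With the block YARS was also called in F192E (0.22, blocked adjusted p = 0.00148) and I757R (0.15, 0.0453). HARS2 fell in WT, E797R (−0.58), IR-ER (−0.53), FE-ER (−0.52), I757R (−0.43) and F192E (−0.29), and was not called in LECY (−0.08, adjusted p = 0.536). The HARS2 call in F192E was lost without F192E siNT replicate 1 (0.106), without the filter on low counts (0.195) and with only the groups compared (0.0614).

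Differences between each mutant and WT were tested too, and all use the same WT libraries. LECY differed from WT in 3 members, all with the higher value in LECY, where 3.31% of all genes were called (2.76% higher). EARS2 in LECY had 56.4, 54.2 and 52.4 CPM with siNT and 86.1, 95.6 and 98.9 CPM with siUPF1, and its effect exceeded that of WT by 0.70 (SE 0.13, adjusted p = 0.00035). RARS2 in LECY had 37.6, 43.5 and 43.5 CPM with siNT and 72.2, 89.6 and 68.4 CPM with siUPF1, well apart (difference 0.65, SE 0.14, adjusted p = 0.00361), not called when only the 4 groups were fitted (0.102). For HARS2 the libraries overlapped, at 50.5, 56.4 and 43.5 CPM with siNT and 46.6, 43.6 and 52.0 CPM with siUPF1 (difference 0.48, SE 0.12, adjusted p = 0.0129). That call was lost without WT siNT replicate 2 (0.0524), WT siUPF1 replicate 2 (0.059), LECY siNT replicate 3 (0.082) or LECY siUPF1 replicate 3 (0.0522), with only the 4 groups fitted (0.232) and without the filter (0.298). With the block 6 members differed, adding CARS (0.44, blocked adjusted p = 0.0225) and YARS (0.38, 0.00112) as higher in LECY and VARS (−0.59, 0.0192) as lower. F192E differed from WT in EARS2 alone, with 0.18% of all genes called (0.62, SE 0.12, adjusted p = 0.0133). That call was lost without any 1 of 6 libraries (F192E siNT replicate 1 or 3, F192E siUPF1 replicate 2, WT siNT replicate 3, WT siUPF1 replicate 2 or 3; adjusted p 0.0668 to 0.0939), without the filter (0.105) and with only the 4 groups fitted (0.213). FE-ER (0.00599% of all genes), I757R, IR-ER and E797R (each 0%) differed from WT in 0 members by edgeR and by DESeq2, and in 2, 1, 2 and 2 at an unadjusted p under 0.05. For EARS2 the unadjusted 95% interval of the FE-ER difference was 0.25 to 0.74, of I757R 0.06 to 0.56, of IR-ER 0.10 to 0.59 and of E797R −0.17 to 0.32 on the log2 scale. Differences between mutants and CLIP were not tested. The shares of all genes given here are from the main model, and none was computed with the block.

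**Figure D4:**
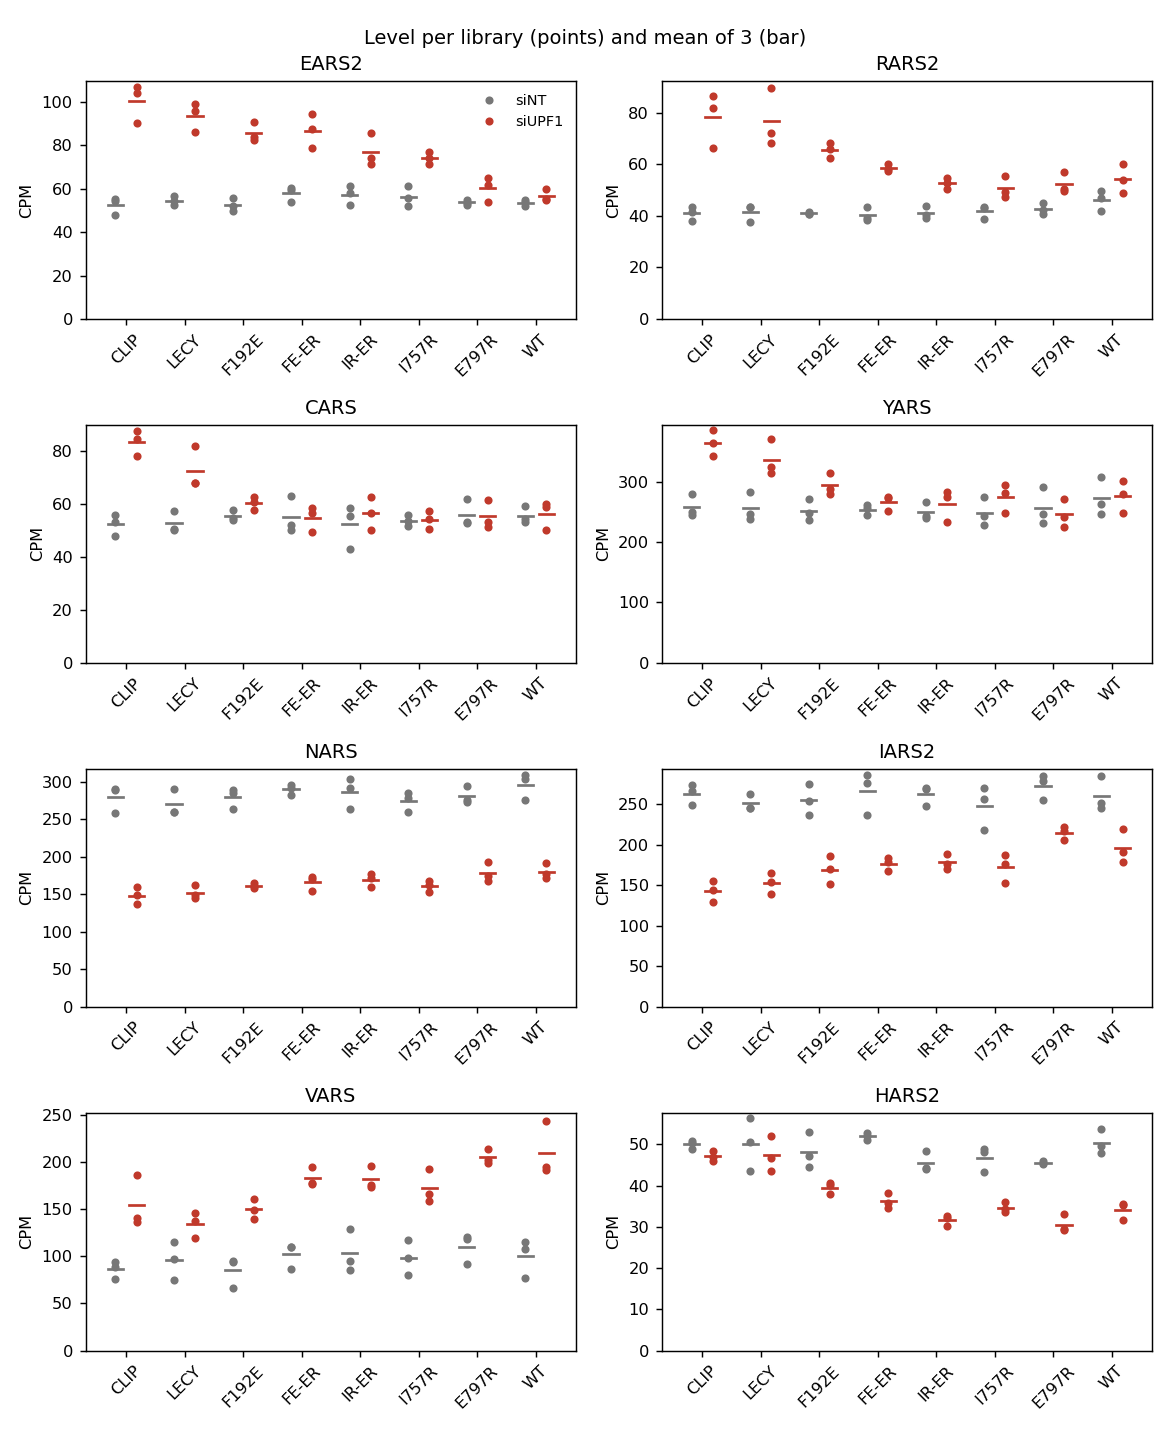
CPM per library (points) and mean of 3 (bars) with siNT (grey) and siUPF1 (red) for 8 synthetase genes in the 8 lines; each y axis starts at 0. NARS and IARS2 are lower and VARS higher with siUPF1 in every line, the siUPF1 level of EARS2 goes from 100.4 CPM in CLIP to 56.8 CPM in WT, and the siUPF1 level of HARS2 is 47.1 CPM in CLIP and 34.2 CPM in WT.

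Several further members changed in only some of the tests within lines, which does not show that the lines differ. MARS rose in 6 lines, and in CLIP and LECY (0.45) it did so under all alternatives. With the block MARS was also called higher in IR-ER and E797R. Its call was lost in F192E without siNT replicate 2 (adjusted p = 0.0695), in WT without siUPF1 replicate 1 (0.158) or siNT replicate 2 (0.169), in FE-ER without siUPF1 replicate 1 (0.168) or 3 (0.0612) or siNT replicate 2 (0.144) or 3 (0.1), and in I757R without siNT replicate 1 (0.0997) or 2 (0.14) or siUPF1 replicate 1 (0.113) or 3 (0.0652). Without the filter MARS was lost in WT (0.0535), FE-ER (0.0988) and I757R (0.119), and with only the groups compared in the same lines (0.134, 0.0507 and 0.0682). EPRS fell in 6 lines (−0.31 in LECY), and the call was lost in I757R without siNT replicate 1 (0.0562) or siUPF1 replicate 3 (0.0501) and with only the groups compared (0.062). TARS fell in 7 lines, all but WT (−0.21, adjusted p = 0.0685, and 0.00425 with the block). Under all alternatives it did so in F192E (−0.38), FE-ER (−0.37) and IR-ER (−0.32). The TARS call was lost in E797R without siNT replicate 1 (0.149) or 2 (0.102) or siUPF1 replicate 3 (0.238), in I757R without siNT replicate 1 (0.0904) or siUPF1 replicate 3 (0.13), and in LECY without siNT replicate 1 (0.0677) or 2 (0.101) or siUPF1 replicate 1 (0.0716) or 3 (0.18). It was lost in these lines without the filter (0.181 in E797R, 0.0568 in I757R and 0.111 in LECY) and with only the groups compared (0.177, 0.0855 and 0.0929).

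SARS2 rose in 7 lines, all but E797R (0.30, adjusted p = 0.0848), where it was called higher with the block. The SARS2 call was lost in FE-ER without siUPF1 replicate 2 (0.0508) and in WT without siUPF1 replicate 1 (0.0578) or with only the groups compared (0.0538). AARS2, the mitochondrial alanine enzyme, rose in 5 lines, and with the block in I757R too. Its call was lost in LECY without siUPF1 replicate 1 (0.0624) or siNT replicate 2 (0.0523) or 3 (0.0599), and in WT without siUPF1 replicate 1 (0.318) or siNT replicate 2 (0.212) or 3 (0.0579). Without the filter it was lost in LECY (0.11), WT (0.244) and F192E (0.0548), and with only the groups compared in LECY (0.0555) and WT (0.244). LARS2 rose in LECY as well (0.30), lost without the filter (0.109), and was called higher in WT with the block. DARS fell in F192E too (−0.20), lost without siNT replicate 2 (0.13) or siUPF1 replicate 2 (0.0669) or 3 (0.0548), without the filter (0.416) and with only the groups compared (0.0923), and in LECY (−0.32). FARSB fell in F192E (−0.44), lost without siNT replicate 2 (0.167) or siUPF1 replicate 1 (0.061), 2 (0.0685) or 3 (0.0564), and in I757R (−0.51), lost without siNT replicate 2 (0.0844) or siUPF1 replicate 1 (0.0571) or 3 (0.108). QARS, the glutamine enzyme, rose in WT (log2 0.70, SE 0.22, adjusted p = 0.0268), where it had 82.9, 60.6 and 92.6 CPM with siNT and 133, 119 and 131 CPM with siUPF1. The siNT libraries of QARS were widely spread, and its WT call was lost without WT siNT replicate 1 (0.0503) or 2 (0.185) or siUPF1 replicate 1 (0.0774) or 3 (0.0596). VARS2 rose in WT (0.44, adjusted p = 0.037), lost without siNT replicate 1 (0.0908) or 2 (0.162) or siUPF1 replicate 1 (0.136) or 3 (0.109) or with only the groups compared (0.0793), and 22.0% of its exon bases are shared on the same strand with GTF2H4. With the block VARS2 was also called higher in CLIP, F192E, IR-ER and I757R. GARS fell in FE-ER (−0.32), lost without FE-ER siNT replicate 1 (0.057). AARS, FARSA, HARS, KARS, LARS and RARS among cytosolic genes, and FARS2, MARS2, NARS2, PARS2, TARS2 and WARS2 among mitochondrial genes, were called in no line in the main model. Besides the block, other alternatives called some of them: RARS in CLIP (no filter on low counts 0.00229, only the groups compared 0.00792) and, without the filter, in F192E (0.00443) and LECY (0.0292), and MARS2 in CLIP with only the groups compared (0.0475). In WT FARSA and MARS2 were called without siNT replicate 1 (0.0367 and 0.0333) or siUPF1 replicate 3 (0.0394 and 0.0163). In FE-ER MARS2 was called without siNT replicate 2 (0.0479) or siUPF1 replicate 3 (0.0383), and FARSA without siUPF1 replicate 3 (0.0431). KARS was at −0.02 in CLIP, with a 95% interval of −0.13 to 0.10.

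Of 8 enzymes of the multi-synthetase complex, in CLIP cells MARS rose and DARS, EPRS and IARS fell, with a median log2 change of −0.24 beside −0.03 over all genes, of which 33.7% were called. The 12 cytosolic enzymes outside it split into 4 that rose, 4 that fell and 4 not called (median 0.04). Synthetases fall into the unrelated class I and class II folds. Of 19 class I enzymes 8 rose and 5 fell (median 0.32), and of 17 class II enzymes 3 rose and 4 fell (median −0.02). EPRS, which carries the glutamate and the proline activity, was counted in class I alone, so the split is not clean for it. Of 12 cytosolic synthetases listed as ATF4 targets, 4 rose (CARS, MARS, SARS and YARS), 5 fell (EPRS, IARS, NARS, TARS and WARS) and 3 were not called, with a median of −0.08. ATF4 itself went from 723, 764 and 821 CPM to 1329, 1381 and 1437 CPM in CLIP (log2 0.85, SE 0.11, adjusted p = 8.59e-08) and was at −0.01 in WT (adjusted p = 0.985). It rose in LECY (0.78), F192E (0.55) and FE-ER (0.31, adjusted p = 0.0448) as well.

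The 30 other listed ATF4 targets, which are not synthetases, gave 13 that rose, 1 that fell and 16 not called in CLIP, with a median of 0.65. The largest were STC2, a secreted stress protein (1.98, adjusted p = 1.58e-05), SESN2, a leucine sensor of the mTORC1 pathway (1.56, 5.38e-06), and SLC7A5, a transporter of large neutral amino acids (1.53, 7.14e-12). PSAT1 of serine synthesis fell (−0.79, 0.000633). Of all genes 18.1% were higher and 15.6% lower in CLIP. In LECY 12 rose and 1 fell (median 0.55), beside 15.8% and 13.6% of all genes. In F192E 8 rose and 1 fell (median 0.31), beside 11.8% and 10.1%. In WT 1 rose and 1 fell (median −0.07), below the 8.43% and 6.98% of all genes. The ATF4-listed synthetases had medians of −0.12, −0.20 and −0.15 in the same 3 lines. In WT minus CLIP, ATF4-listed CARS and YARS were among the called members, and NARS, IARS, TARS, EPRS and WARS were not (differences of −0.18 to 0.22, adjusted p from 0.35 to 0.999).

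Genes that work beside the synthetases were read the same way. Of 12 cytosolic partners, which include the complex scaffolds, the elongation factor that delivers charged tRNA and the proofreading enzymes, 1 rose and 4 fell in CLIP (median −0.13), where 33.7% of all genes were called (18.1% higher, 15.6% lower), so the share called was near that of all genes. AARSD1, which removes serine wrongly joined to alanine tRNA, rose (log2 0.99, SE 0.11, adjusted p = 5.59e-09), and DTD2, which clears alanine wrongly joined to threonine tRNA, fell (log2 −0.73, SE 0.13, adjusted p = 1.57e-05), as did the elongation factor subunit EEF1G (−0.50, adjusted p = 0.000681). The scaffold genes AIMP1, AIMP2 and EEF1E1 of the multi-synthetase complex were not called (−0.24, 0.06 and 0.04). Of 12 mitochondrial partners, 6 rose and 1 fell (median 0.25). TRNT1, which adds the CCA end that tRNAs of either compartment need for charging, rose (log2 0.83, SE 0.12, adjusted p = 8.76e-07), TRMU, which thiolates mitochondrial tRNAs, rose by 0.54 (adjusted p = 0.00258), and PPA2, the mitochondrial pyrophosphatase, fell (log2 −0.88, SE 0.17, adjusted p = 6.67e-05). In human mitochondria EARS2 also charges glutamine tRNA with glutamate, which an amidotransferase of QRSL1, GATB and GATC then converts. Of these 3 subunits GATB and GATC rose in CLIP (0.34 and 0.45, adjusted p = 0.0207 and 1.32e-05) and QRSL1 was not called (−0.25, 0.211). In WT GATB, GATC and QRSL1 were at 0.09, −0.01 and −0.34, none of them called.

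Transcripts of the NMD type (GENCODE 29) were annotated at similar shares of the members that rose and that fell. Such a transcript was annotated for 13 of 20 cytosolic genes (65%), 9 of 16 mitochondrial genes (56.2%) and 35.7% of 19916 coding genes. Those 19916 include coding genes that did not pass the filter on low counts, which all members passed. The share among expressed coding genes was not computed. It was annotated for 6 of the 11 members that rose in CLIP, 6 of the 9 that fell and 10 of the 16 not called. EARS2 has 4 such transcripts among 17, whereas RARS2, VARS, YARS and SARS have none, and neither does IARS2. NARS, which fell in all lines, has 3 among 12. The deposited table gives 1 value per gene, so levels of single transcripts were not analysed here.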

How the data were processed

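RNA-seq of 48 libraries was read from the deposited table of expected counts per gene, which the authors made, per the submitters' processing notes, with cutadapt, STAR, RSEM and DESeq2 on hg38. The roles and settings of these tools, the annotation release and the strand setting are not given in the sources used here. Expected counts were rounded to whole counts (9.16% of values were not whole). Library totals ran from 6016962 to 14551811, median 8670868.5. They limit precision by counting error only. The p-values of the main model rest on the spread between the 3 biological replicates within groups, estimated over all 16 groups together.

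All 48 libraries entered 1 model with a coefficient per group in edgeR 4.0.16 (R 4.3.3, limma 3.58.1), with TMM factors (0.951 to 1.03), edgeR's filterByExpr at a minimum count of 10, and quasi-likelihood F tests. The Benjamini-Hochberg adjustment ran over all 16697 genes tested, and "called" means an adjusted p under 0.05. CPM and fold changes use the TMM factors, the fold changes with edgeR's default prior count. A prior count of 2 entered only the log2 levels used to compare single libraries. An exact permutation test of 3 against 3 libraries cannot go below 0.1 and was not used. Alternatives were DESeq2 1.42.0, RLE factors, no filter, only the groups compared, a replicate block, and leaving out each library. siNT and siUPF1 libraries of the same line and number deviated together from their group means in all 24 pairs (correlation across genes r = 0.115 to 0.469, each highest with its own number). The main model holds no term for the replicate number, so its calls do not use this pairing. The block fits an effect per replicate number that all lines share, not pairs within a line.

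Members named with all values were the 5 cytosolic and 3 mitochondrial genes with the largest called changes in each direction in CLIP and all members with a called difference between lines, and for other gene lists the 3 with the largest called changes. Other genes were named after their values were seen. The members and lists were chosen with earlier results of these data known. Genes were matched to GENCODE 29 without version (99.5% of 58870 IDs), and exon length there gave CPM per kb. Promoters were searched in RefSeq windows.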

Additional observations from a re-analysis of the deposited data

Results flagged for a closer look

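The effect of siUPF1 differed between lines for 6 members in tests of the difference itself, edgeR's interaction contrasts adjusted over all genes. All WT values below come from the same 6 libraries, so the differences are not independent of each other. In WT minus CLIP the log2 differences were −0.85 for EARS2, −0.70 for RARS2, −0.65 for CARS, −0.48 for YARS, −0.47 for HARS2 and 0.47 for IARS2. In LECY minus WT they were 0.70 for EARS2, 0.65 for RARS2 and 0.48 for HARS2. In F192E minus WT the difference of EARS2 was 0.62. Those of EARS2, RARS2 and CARS in WT minus CLIP and of EARS2 in LECY minus WT were called under all 17 alternatives of their comparison, and the others were lost under at least 1.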

How the results depend on the processing

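No call of a named member changed direction under any alternative run. With the replicate number as a block, members called went from 20 to 26 in CLIP, 12 to 19 in WT, 16 to 24 in F192E and 15 to 21 in FE-ER. They went from 13 to 21 in I757R, 12 to 17 in IR-ER, 9 to 15 in E797R and 17 to 21 in LECY. Counts went from 6 to 7 in WT minus CLIP and from 3 to 6 in LECY minus WT. No call was lost under the block. Shares of all genes called were computed for the main model alone. Whether the counts of members under the alternatives moved with those of all genes was not tested. With only the groups compared in the fit, counts were 5 in WT, 3 in WT minus CLIP, 0 in F192E minus WT and 1 in LECY minus WT. Without the filter on low counts they were 3 in WT minus CLIP and 0 in F192E minus WT. Leaving out each library in turn gave 15 to 18 members in CLIP, 6 to 13 in WT, 5 to 8 in E797R, 10 to 15 in I757R, 13 to 16 in F192E, 14 to 16 in FE-ER, 11 to 12 in IR-ER and 12 to 16 in LECY. It gave 4 to 6 in WT minus CLIP, 0 to 1 in F192E minus WT, 2 to 3 in LECY minus WT and 0 in the other comparisons. The WT count of 6 was without WT siUPF1 replicate 1, and the E797R count of 5 without E797R siNT replicate 1. The cause was not tested. RLE factors shifted the log2 changes of the 36 members by a median of at most 0.0168 in either direction in any comparison.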
